A study of Homo sapiens with 4 samples.

Results

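The 6 histone H4 genes H4C1, H4C2, H4C3, H4C4, H4C5 and H4C6 lie in the first histone cluster of the short arm of chromosome 6, and each has its own row in the footprint count table. They were taken by place on GRCh38, as the rows that match these RefSeq genes (from 26021649 at the start of H4C1 to 26240793 at the end of H4C6), 6 of 78724 rows in all. The cells were A375, an established human melanoma line, held for 48 h in medium without L-arginine (2 libraries, replicates 1 and 2) or in control medium (2 libraries, replicates 1 and 2). Both groups were the same line without further treatment in the labels, which describe the arginine-free medium as RPMI prepared from a base lacking amino acids and the cells' usual medium as DMEM with serum, and do not describe the base of the control medium. Ribosome-protected RNA fragments (footprints) were sequenced without depletion of ribosomal RNA. Nothing in the labels says that replicates were separate cultures, so the spread between them may be technical.

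H4 is the histone that pairs with H3 to form the tetramer at the heart of the nucleosome. Its replication-dependent genes are small, without introns in the coding part, and most of them encode the same protein from slightly different DNA. Their mRNAs end in a stem-loop in place of a poly(A) tail and are made mainly in S phase, when new DNA is packaged. The transcription factor HINFP binds a site with the core GGTCCG just upstream of human H4 genes, and NPAT, a substrate of cyclin E and CDK2, acts with it. Footprints report ribosomes on these mRNAs, so less mRNA and fewer ribosomes per mRNA cannot be told apart here, nor can fewer cells in S phase and fewer footprints per cell.

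The H4 genes were singled out as the histone family with the smaller change between these same media, and some of their values were known when they were chosen. Everything below that sets arginine-free against control medium is therefore a description of these 4 libraries and supports nothing by itself. Among tested histone rows, the label of a smaller change held for the sum of the family and for H4C5. H4C6 and H4C3 lay next to the linker histone gene H1-4 and the H2A gene H2AC6, in an order the errors do not fully resolve. The label did not describe H4C1, H4C2 and H4C4, which stood among the other histone genes.

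The promoters of 4 of the 6 genes are shown, the 4 for which a sequence was at hand. Each of the 4 holds matches to the same short elements close to the start. Their log2 fold changes, arginine-free over control, were 0.09 for H4C5, -1.10 for H4C6, -2.34 for H4C2 and -2.35 for H4C4. The part of these elements in the changes was not tested. No promoter sequence was at hand for H4C1 and H4C3, so whether they share these elements was not examined. Each run covers 250 bases before and 50 bases from the RefSeq start, read 5′ to 3′ on the gene's strand (RefSeq, GRCh38.p14). The places are chr6:26204360-26204659 (plus strand) for H4C5, chr6:26240143-26240442 (plus strand) for H4C6, chr6:26027234-26027533 (minus strand) for H4C2 and chr6:26189063-26189362 (minus strand) for H4C4. Capitals mark matches to GGTCCG, to the TATA-box letters TATAA and to the element TGACGTCA, searched on both strands.
H4C5: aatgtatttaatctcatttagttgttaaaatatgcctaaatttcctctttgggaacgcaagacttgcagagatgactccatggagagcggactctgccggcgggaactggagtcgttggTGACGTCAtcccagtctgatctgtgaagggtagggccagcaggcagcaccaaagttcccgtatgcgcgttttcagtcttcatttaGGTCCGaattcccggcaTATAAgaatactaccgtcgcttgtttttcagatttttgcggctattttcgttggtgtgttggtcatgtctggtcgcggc
H4C6: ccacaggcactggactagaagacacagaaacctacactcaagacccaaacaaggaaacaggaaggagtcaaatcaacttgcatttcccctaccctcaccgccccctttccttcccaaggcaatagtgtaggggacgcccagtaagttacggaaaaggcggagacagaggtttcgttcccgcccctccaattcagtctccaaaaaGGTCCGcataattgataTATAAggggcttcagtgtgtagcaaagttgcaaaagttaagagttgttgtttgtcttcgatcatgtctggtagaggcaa
H4C2: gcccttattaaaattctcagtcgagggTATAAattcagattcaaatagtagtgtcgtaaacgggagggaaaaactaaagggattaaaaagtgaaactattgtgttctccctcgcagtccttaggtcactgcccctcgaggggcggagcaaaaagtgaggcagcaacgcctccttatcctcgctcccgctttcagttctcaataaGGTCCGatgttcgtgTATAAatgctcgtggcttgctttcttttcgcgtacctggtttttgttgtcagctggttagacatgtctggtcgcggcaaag
H4C4: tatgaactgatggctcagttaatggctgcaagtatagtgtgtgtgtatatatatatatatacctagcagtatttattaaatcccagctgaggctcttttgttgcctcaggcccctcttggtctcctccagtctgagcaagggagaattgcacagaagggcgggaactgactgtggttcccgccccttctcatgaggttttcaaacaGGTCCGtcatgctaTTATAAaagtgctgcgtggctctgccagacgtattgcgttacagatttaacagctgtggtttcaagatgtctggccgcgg

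GGTCCG stood 46 bases before the start in H4C5, H4C6 and H4C2 and 44 bases before it in H4C4. A TATAA match followed it 29 bases before the start in H4C5, H4C6 and H4C4, and 31 bases before it in H4C2. In H4C4 the match on the other strand overlaps that one by all but 1 base, and H4C2 had a further TATAA match 223 bases before the start. GGTCCG occurred in 12 of the 13 H4 promoters of the table and in 11.3% of all 35116 promoters of this length, and TATAA in 11 of 13 and in 20.4%. The 8-letter element TGACGTCA, the known binding sequence of CREB and ATF family factors, occurred 131 bases before the start of H4C5 and in none of the other 3 promoters shown. It was searched for after the H4C5 values and sequence had been seen, and it was present in 2 of 13 H4 promoters, the other being H4C8, and in 1.85% of all. A match is a description of the letters, not evidence that a factor bound there, and H4C1 and H4C3 are named only.

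Library totals were 234766 and 192006 counts in arginine-free medium, against 105004 and 217989 in control medium. The mitochondrial valine tRNA row alone took 10.3% and 8.68% of counts in arginine-free medium and 8.83% and 20.2% in control medium. The table's coordinates are those of GRCh38, while the submitters' processing notes name GRCh37 and hg19, so a row may hold reads from a place displaced from its gene and need not hold all reads of that gene. Of the 10 nearest protein-coding rows around each H4 member, 6 to 9 held at least 20 reads. Of 10 melanocytic marker genes, 9 had a row, and 4 of those held no read. Only TYRP1 (1 and 0 reads in arginine-free medium, 16 and 25 in control medium) and MFSD12 (175 and 159, against 370 and 511) had enough reads to be tested. Both were lower in arginine-free medium by edgeR's adjusted p, as were 16.9% of all tested rows. None of the 11 keratinocyte, fibroblast and T cell marker rows had enough reads to be tested, and 7 of them held none. The part of the TYRP1 and MFSD12 differences in the H4 values was not tested.

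Levels are given in CPM, which scales counts by the total of the tested rows and its TMM factor. Log2 fold changes and standard errors (SE) are from the edgeR quasi-likelihood fit over 2526 rows, arginine-free over control. The 6 H4 rows held 3423 reads together, from 176 on H4C1 to 1212 on H4C5, and edgeR's filter on low counts kept each of them in the fit.

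H4C5 (ENSG00000276966.3, chromosome 6, 26204610 to 26205021, plus strand) was the member with most reads and the one whose levels in the media overlapped. It had 334 and 358 reads in arginine-free medium, against 188 and 332 in control medium. That is 1446 and 2249 CPM in arginine-free medium, against 1772 and 1703 CPM in control medium. The arginine-free libraries lay on either side of both control libraries. The means were 1848 ± 567 CPM in arginine-free and 1737 ± 48.9 CPM in control medium (SD, n = 2 each), with a log2 fold change of 0.09 (SE 0.24). The value changed sign with the library left out. With replicate 1 of that medium left out it was 0.42, with replicate 2 left out it was -0.20, and scaling libraries by their totals alone gave -0.02. The data do not show that H4C5 was unchanged, only that a difference was not detectable against that spread.

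H4C6 (ENSG00000274618.2, 26240393 to 26240793, plus strand) had the next smallest change. It had 98 and 69 reads in arginine-free medium, against 92 and 189 in control medium. In CPM it stood at 424 and 433 in arginine-free medium and at 867 and 969 in control medium, and the groups did not overlap. The log2 fold change was -1.10 (SE 0.21), 2.15-fold lower.

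H4C3 (ENSG00000197061.5, 26103933 to 26104337, plus strand) was the member with the highest mean in control medium. It had 148 and 142 reads in arginine-free medium, against 175 and 401 in control medium. That is 641 and 892 CPM in arginine-free medium and 1649 and 2057 CPM in control medium, with no overlap. The log2 fold change was -1.29 (SE 0.24), 2.44-fold lower. Arginine-free replicate 2 was above replicate 1 in H4C3 as in every other member except H4C4.

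H4C4 (ENSG00000277157.2, 26188710 to 26189112, minus strand) had 53 and 36 reads in arginine-free medium, against 124 and 227 in control medium. Its levels were 230 and 226 CPM in arginine-free medium and 1169 and 1164 CPM in control medium. The log2 fold change was -2.35 (SE 0.22), 5.1-fold lower. The SD between the arginine-free libraries, 2.41 CPM, is smaller than the counting error of 53 and 36 reads, so the SD of 2 libraries understates the error here.

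H4C2 (ENSG00000278705.4, 26025802 to 26027283, minus strand) had almost the same change as H4C4, the other gene on the minus strand. It had 33 and 24 reads in arginine-free medium, against 79 and 145 in control medium. The levels were 143 and 151 CPM in arginine-free medium and 745 and 744 CPM in control medium. The log2 fold change was -2.34 (SE 0.25), 5.06-fold lower.

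H4C1 (ENSG00000278637.3, 26021649 to 26022847, plus strand) had the fewest reads and the largest drop of the 6. It had 11 and 13 reads in arginine-free medium, against 62 and 90 in control medium. The levels were 47.6 and 81.7 CPM in arginine-free medium, against 584 and 462 CPM in control medium. The log2 fold change was -3.04 (SE 0.34), 8.21-fold lower, and leaving out arginine-free libraries moved it to -2.59 (replicate 1 left out) and -3.35 (replicate 2 left out).

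**Figure D1:**
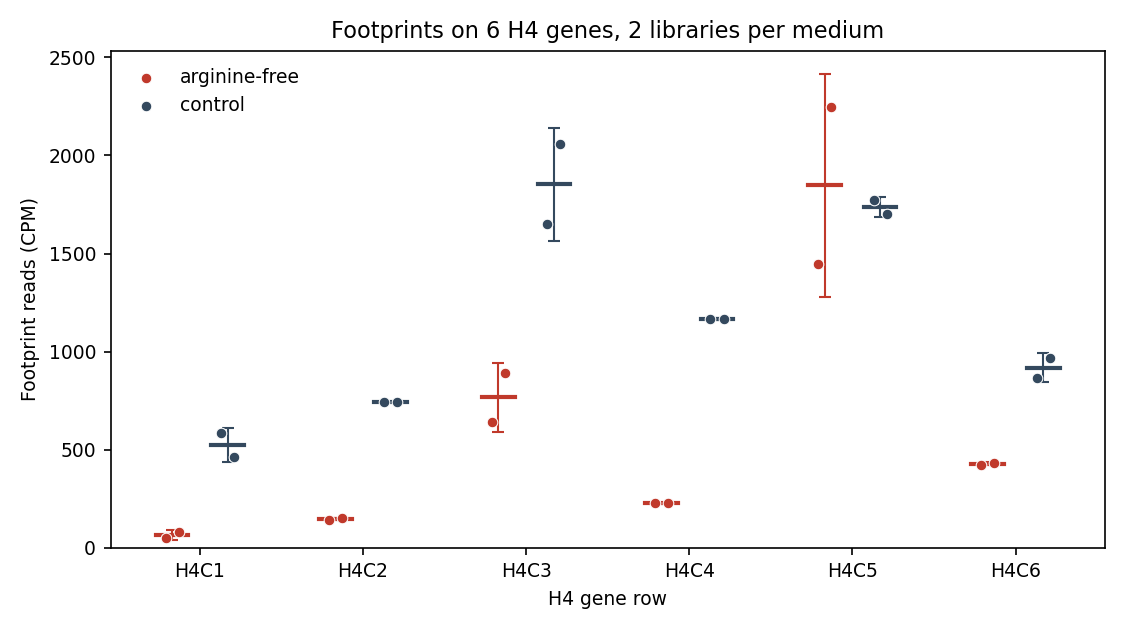
Footprint level in CPM (vertical axis, linear, from 0) of each H4 gene row, with arginine-free libraries in red at the left of each pair and control libraries in dark blue at the right; points are libraries, horizontal bars means and whiskers SD (n = 2 each). The groups overlap for H4C5 and lie apart for the other 5 rows.

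In the edgeR fit, 5 of the 6 rows were past the adjusted threshold of 0.05 as lower, H4C5 was not, and none was higher. Over all 2526 tested rows 16.9% were lower and 16% higher by the same rule, and the median log2 fold change was -0.03, against -1.81 for the 6 H4 rows. Both arginine-free libraries lay below both control libraries in 5 of the 6 rows, against 34.2% of all tested rows. Since this contrast led to the choice of the genes, nothing is read from these counts.

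Added together, the 6 rows held 677 and 642 reads in arginine-free medium, against 720 and 1384 in control medium. The sums were 2932 and 4032 CPM in arginine-free medium and 6786 and 7098 CPM in control medium, with no overlap. The mean was 3482 ± 778 CPM in arginine-free and 6942 ± 221 CPM in control medium (SD, n = 2 each), a ratio of -0.995 on the log2 scale or 1.99-fold lower. H4C5 carried much of what remained. Without it, the other 5 rows gave 1485 and 1784 CPM in arginine-free medium and 5014 and 5395 CPM in control medium, 3.18-fold lower (log2 ratio -1.67).

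The make-up of the H4 reads needs no scaling between libraries. H4C5 gave 49.3% of H4 reads in arginine-free replicate 1 (95% Wilson interval 45.6 to 53.1) and 55.8% in replicate 2 (51.9 to 59.6), against 26.1% in control replicate 1 (23.0 to 29.4) and 24.0% in control replicate 2 (21.8 to 26.31). These intervals cover counting error only, since amplified fragments are not independent molecules. They leave out any error in assigning reads among near-identical H4 copies. H4C1, H4C2 and H4C4 each took a smaller share in both arginine-free libraries than in either control library. H4C4, for example, gave 7.83% and 5.61% in arginine-free medium and 17.2% and 16.4% in control medium. The share of H4C6 overlapped between the media, at 14.5% and 10.7% in arginine-free medium and 12.8% and 13.7% in control medium. H4C3 stood at 21.9% and 22.1% in arginine-free medium, against 24.3% and 29.0% in control medium, and the intervals of both arginine-free libraries overlap that of control replicate 1.

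**Figure D2:**
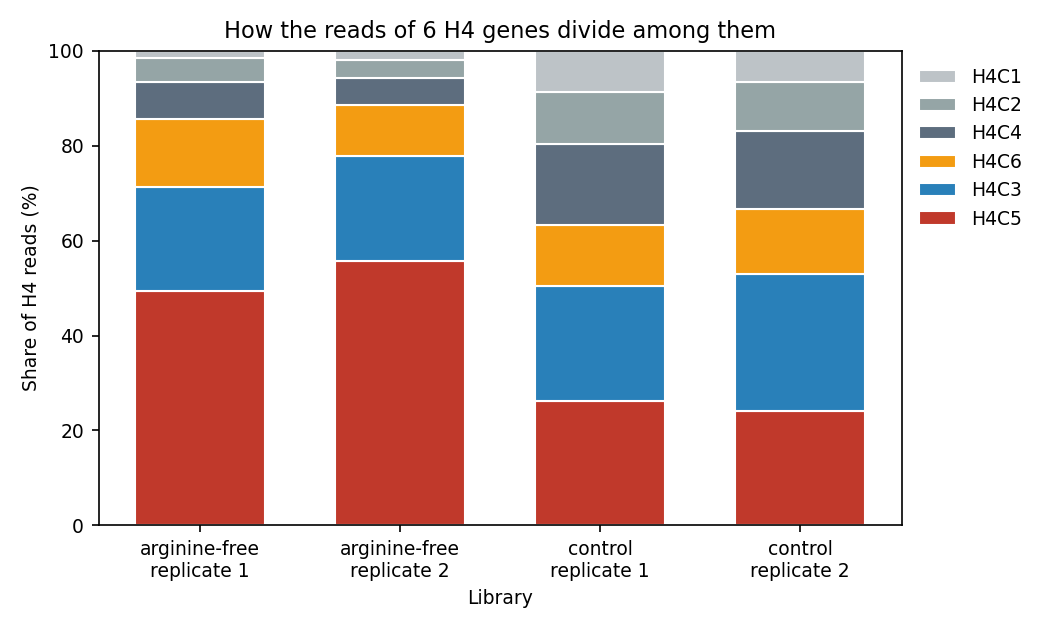
Share of the reads on the 6 H4 rows (vertical axis, percent) that each row gave, in the 2 arginine-free libraries at the left and the 2 control libraries at the right. H4C5, at the foot of each bar, takes 49.3% and 55.8% in arginine-free medium and 26.1% and 24.0% in control medium.

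Set against single members within a library, H4C5 had 2.26 and 2.52 times the reads of H4C3 in arginine-free medium, against 1.07 and 0.828 times in control medium. Against H4C1 the ratio was 30.4 and 27.5 in arginine-free medium and 3.03 and 3.69 in control medium. Neither ratio depends on how libraries were scaled, and for both the arginine-free libraries lay above the control libraries. Both ratios do depend on how reads were assigned among near-identical copies.

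Per kilobase of row, the order of levels differed between the media. In arginine-free medium H4C5 came first with 4484 ± 1377 CPM per kb, before H4C3 (1892 ± 438), H4C6 (1070 ± 15.8), H4C4 (565 ± 5.99), H4C2 (99.1 ± 3.74) and H4C1 (53.9 ± 20.1). In control medium the order was H4C3 (4575 ± 711 CPM per kb), H4C5 (4217 ± 119), H4C4 (2894 ± 7.79), H4C6 (2290 ± 180), H4C2 (502 ± 0.42) and H4C1 (436 ± 72.4; SD, n = 2 throughout). H4C3 and H4C5 in control medium, and H4C2 and H4C1 there, did not differ beyond their spread. The SD of H4C2 and H4C4 in both media, and of H4C6 in arginine-free medium, are smaller than the counting error of their reads. They understate the error of these levels. The rows of H4C1 and H4C2 run 797 and 1094 bases past the end of the RefSeq gene, while the other 4 rows match it exactly at 401 to 412 bases. The added bases would lower a level per kilobase if the reads lay on the gene alone. Since rows may be displaced from their genes between builds, neither this effect nor the order of the copies is established. Per kilobase of the RefSeq gene, H4C2 stood at 378 and H4C1 at 161 CPM in arginine-free medium, and at 1918 and 1301 CPM in control medium, so they kept the last places in both media.

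The position of H4 among the histone families was described from the rows of the same cluster, from H1-1 (start 26017032) to H4C8 (end 26285534). Of 18 tested rows for H1, H2A, H2B and H3, 18 were past the threshold as lower, with a median log2 fold change of -3.13, against 5 of 6 and -1.81 for H4. H3, the partner of H4 in the tetramer, had 5 of 5 tested rows lower with a median of -4.43, from -3.41 at H3C1 to -5.69 at H3C2. The H3C6 row, which the filter on low counts left out of the fit, had 9 and 5 reads in arginine-free medium and 6 and 8 in control medium. That is 38.98 and 31.4 CPM in arginine-free medium, against 56.5 and 41.0 CPM in control medium, so the groups lay apart by far less than on the tested H3 rows. It was singled out after its values were seen. H2B had 6 of 6 with a median of -3.13 (H2BC5 at -2.20, H2BC3 at -4.62), and H2A had 3 of 3 with a median of -2.79 (H2AC6 at -1.62, H2AC4 at -4.42). The linker histones H1 had 4 of 4 with a median of -2.30 (H1-4 at -1.38, H1-1 at -2.83). Over the 24 tested histone rows, H4C5, H4C6 and H4C3 held the 3 highest values, while H4C2, H4C4 and H4C1 ranked 8, 9 and 14 from the top. The SE of H4C6, H4C3 and H1-4 overlap. That of H2AC6 (-1.62, SE 0.25) overlaps those of H4C3 and H1-4, so the order of these neighbours is not fully resolved.

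**Figure D3:**
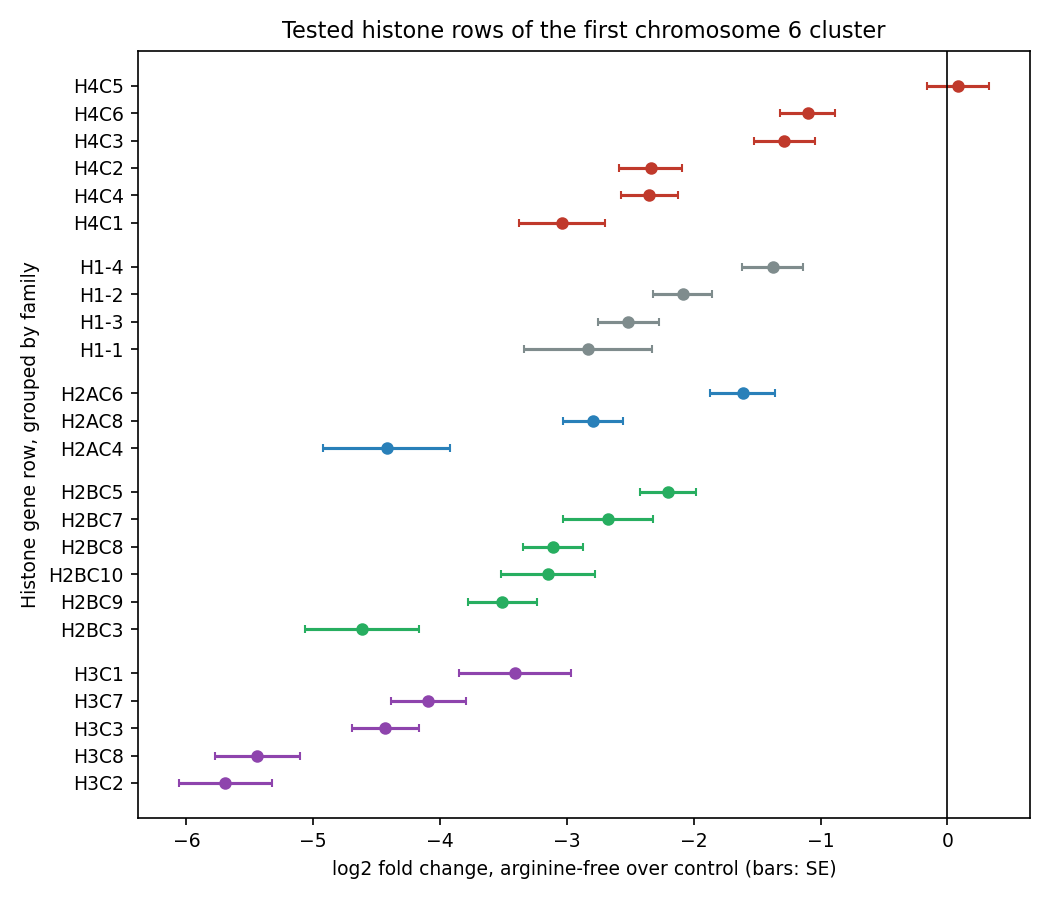
Log2 fold change, arginine-free over control (horizontal axis, points with SE bars), of the 24 tested histone rows, grouped by family from H4 at the top to H3 at the bottom. H4C5 sits at 0.09, and the H3 rows lie between -3.41 and -5.69.

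As a share of all reads on histone rows of chromosome 6, H4 took 37.4% (95% Wilson interval 35.2 to 39.6) and 42.1% (39.6 to 44.6) in arginine-free medium, against 18.7% (17.5 to 19.96) and 19.9% (18.9 to 20.8) in control medium. H3 went the other way, with 2.98% and 3.28% in arginine-free medium and 16.7% and 17.4% in control medium. The reads of H4 and H3 thus stood at 677 and 54, and at 642 and 50, in the arginine-free libraries, against 720 and 642, and 1384 and 1215, in the control libraries. H2B (9.55% and 9.31%, against 15.4% and 15.3% in control medium) and H2A (11.5% and 9.37%, against 13.7% and 12.5%) also took smaller shares. H1 took 38.6% and 36.0% in arginine-free medium and 35.5% and 34.9% in control medium. In summed CPM every family was lower in arginine-free medium, from 1.99-fold for H4 to 22.4-fold for H3. H4C5 does not account for the whole of the H4 share. Without it on either side of the fraction, H4 averaged 23.8% in arginine-free medium and 15.2% in control medium. An exact permutation test of 2 libraries against 2 cannot give a two-sided p under 0.333, and none was run on these shares.

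The rows whose levels followed the summed H4 profile most closely were sought among the 20 other tested rows of the cluster window, by the root mean square difference of row-centred log2 CPM over the 4 libraries. H1-4 came nearest at 0.23, before H2AC6 at 0.39, H1-2 at 0.56 and H2BC5 at 0.59. H1-4, a linker histone, had 1048 and 1350 CPM in arginine-free medium and 3478 and 2759 CPM in control medium. With 4 libraries and 1 contrast, likeness of this kind mostly restates the size of the change.

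Reads at the other H4 genes did not help to place these values. Of 9 further H4 genes, 8 had a row, 7 of those held no read and the remaining one, H4C14, held 1. H4C7 (26246611 to 26246996) and H4C8 (from 26285126) lie in the same cluster beyond H4C6 and are no members. Each held 0 reads, against 176 on the member with fewest. The 3 counts that a count of 0 allows come to between 12.8 and 28.6 CPM of all counts, depending on the library. This bound covers counting error alone. It sets no ceiling for H4C7 or H4C8 if their rows are displaced from the genes or if reads shared between copies were lost.

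Genes that act on the histone supply were read from a list of 22. Rows were matched for 21, of which 13 held no read and 5 were tested. ZNF473, the zinc finger protein of the histone pre-mRNA processing machinery, had 18 and 22 reads in arginine-free medium and 19 and 42 in control medium (log2 fold change -0.93, SE 0.35, edgeR adjusted p = 0.0558). CHAF1A, the large subunit of the chaperone that loads H3 and H4 onto new DNA, had 12 and 5 reads against 13 and 11 (log2 fold change -0.91, SE 0.53, edgeR adjusted p = 0.208). The row at the place of NPAT was the 1 past the threshold, as lower. The arginine-free libraries held 3 reads each there, against 6 and 14 in the control libraries. Only 2 of its 10 nearest protein-coding rows held 20 reads, so those reads need not come from NPAT. Of the 5 tested genes 1 was thus lower and none higher, against 16.9% and 16% of all tested rows. SLBP, which binds the stem-loop of histone mRNAs, and HINFP were listed at 0. Only 2 of the 10 nearest protein-coding rows of SLBP and 3 of those of HINFP held 20 reads. Their 0 therefore need not mean that footprints were absent.

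Of 20 S-phase genes, 18 had a row, 9 of those held no read and 4 were tested. Of the 4 tested, 1 was lower and none higher, against 16.9% and 16% of all tested rows. The lower one was TYMS, thymidylate synthase (77 and 47 reads in arginine-free medium, 62 and 98 in control medium, log2 fold change -0.77, SE 0.24, edgeR adjusted p = 0.0219). UHRF1, which reads hemimethylated DNA after replication, had 38 and 26 reads in arginine-free medium and 11 and 20 in control medium (log2 fold change 0.67, SE 0.33, edgeR adjusted p = 0.135). With 4 tested genes the list says little about S phase, and its part in the H4 values was not tested.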

How the data were processed

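The deposited counts came from featureCounts 2.0.1 over exons of GENCODE 47 (basic), with no strand option, per the file headers. Tools named in the processing notes, credited to the submitters, are cutadapt, TopHat2 and Bowtie2 2.5.2, beside the builds GRCh37 and hg19. H4 genes are near-identical, so the reads of a single copy are uncertain. How reads that match several copies were treated is not spelled out in the sources used here. The names of the counted alignments include the word hqmapped, so a filter on mapping quality may have removed such reads before counting.

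Rows were named by place against RefSeq GRCh38.p14, as mutual best matches that share a start or an end (overlap of 0.5 of the union, or the whole gene held) or else overlap by 0.75. This named 39317 of 78724 rows. No coordinates were converted.

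Counts were tested with edgeR 4.0.16 (R 4.3.3; TMM, filterByExpr, quasi-likelihood test, Benjamini-Hochberg over 2526 rows, threshold 0.05). SE was derived as |log2 fold change| divided by the root of F. Wilson intervals used statsmodels 0.14.6. The alternatives included DESeq2 1.42.0. In simulated counts for 2266 rows, 93.8% of 97 rows with a 4-fold change and 40% of 90 rows with a 2-fold change were recovered. There were 11 calls among 2079 unchanged rows. All simulated rows shared the same dispersion (0.034), and a smaller part of them was changed than was called in the data. These rates need not hold for the fit to the data.

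Members, lists and alternatives were chosen with earlier results of these data known. Named were the 6 H4 rows, other H4 rows, the extreme rows of each other family, the 4 nearest profiles, and tested list members for which at least 5 of the 10 nearest protein-coding rows held 20 reads, a minimum set after the data were seen. NPAT, SLBP and HINFP were named outside this rule after their values were seen.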

Additional observations from a re-analysis of the deposited data

How the results depend on the processing

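Every H4 row kept its side of the threshold in all 12 alternatives (72 of 72 values): other scaling factors, other filters on low counts, DESeq2, a replicate block, nuclear rows alone and leaving out each library in turn. The count of lower H4 rows was 5 in each. The sign of the H4C5 value, which was never past the threshold, changed with the setting, from -0.20 to 0.42. The correlation between deviations of same-numbered libraries was -0.05, so the numbers are not shown to pair them. With the replicate block, 372 rows of the table were lower and 354 higher, H4C5 stood at 0.06, and no H4 call changed.

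The summed H4 log2 ratio of -0.995 ranged from -1.24 without arginine-free replicate 2 to -0.78 without arginine-free replicate 1, and was -1.67 without H4C5, the row with most reads. The difference in the H4 share of histone reads, 20.4 percentage points, ranged from 18.1 to 22.8 over the libraries left out, and was 8.58 without H4C5. Over the whole table, the 428 lower and 405 higher rows became 147 and 162 with DESeq2 given 9443 rows, and leaving out a library gave 243 to 389 lower and 270 to 418 higher rows, the lowest both without control replicate 2. Leaving out a library moved the family medians between -4.54 and -4.32 for H3 and between -2.95 and -2.57 for H2A. They moved between -3.20 and -2.81 for H2B and between -2.33 and -2.13 for H1. The cause of these moves was not tested. Depth limits H4C1 most, with 11 and 13 reads in arginine-free medium.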

Other observations

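Among the H4 members, both the strand and the length of a row differed along with its change. The 3 rows with the smaller change, H4C3, H4C5 and H4C6, are on the plus strand and match the RefSeq gene exactly. H4C4, of the same length but on the minus strand, stood at -2.35, and H4C1, on the plus strand with a row 797 bases longer than the gene, at -3.04. Medians over the tested rows of the other families in the window were -2.79 for 9 rows on the plus strand and -4.09 for 9 on the minus strand. By length they ran the other way from H4. They were -2.20 for 5 rows whose counted length differs from the span of the RefSeq gene, and -3.41 for 13 rows that match it. The -2.20 is the value of H2BC5, whose row runs from 26158122 to 26171349. Its 861 counted bases are exons only, while the 13229 bases of the gene are its whole span. These lengths are unlike measures, so this median cannot be read as one for longer rows such as H4C1 and H4C2. These splits were made after the values were seen and were given no test. The part of strand, row length and the difference between builds in the H4 values was not tested.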
